A study of Rattus norvegicus with 6 samples.

Results

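The cytosolic and microsomal glutathione transferases, the UDP-glucuronosyltransferases and the sulfotransferases of rat liver are described here in rats fed either a control or a low-protein diet for 1 feeding period. Members were all probe sets (groups of short oligonucleotides that together read 1 transcript) with exactly 1 gene symbol beginning with Gsta, Gstk, Gstm, Gsto, Gstp, Gstt, Mgst, Ugt1, Ugt2 or Sult. The rule found 47 of the 31042 probe sets tested, which stand for 44 of 14217 named genes. No probe set with a single Ugt1 symbol was found, so 7 of the 8 families considered had members.

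The 6 samples are livers of male Wistar rats bought at 6 weeks of age and about 150 g. All rats had 4 days of pellet feed and 4 days of training on the control diet, offered only in part of each day. They then ate either the control diet (15P, 3 arrays) or a low-protein diet of equal energy content (5P, 3 arrays) for 8 hours. All livers were taken after 16 hours without food, so both groups were fasted. The labels do not say that each array holds 1 separate rat, and p-values then measure only the spread between these samples. The rats carry no named genetic change. The strain is outbred, and the labels give no genotype of single animals.

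These enzymes make small molecules more water-soluble so that they can leave the cell in bile or urine. Glutathione transferases join reactive compounds to the tripeptide glutathione, which is made from glutamate, cysteine and glycine. Glucuronosyltransferases transfer glucuronic acid from UDP-glucuronate, and sulfotransferases transfer a sulfonate group from PAPS (3'-phosphoadenosine-5'-phosphosulfate) to phenols, steroids and bile acids. In liver several of these genes are known targets of NRF2 (gene Nfe2l2), which binds antioxidant response elements, and of the receptors AHR, CAR and PXR.

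Promoter sequence is shown for 3 members because Gsta3 had the largest difference of the glutathione transferases, Gsta1 lies near it in the genome, and Gstm7 differed the other way. RefSeq promoters of assembly GRCr8 were matched by symbol or gene ID for 37 of the 44 genes, which gave 40 promoters. Each window holds the 250 bases before the transcript start, 5′ to 3′ on the gene's own strand. Capitals mark the core of the antioxidant response element, TGACNNNGC, searched on both strands; the Gsta1 window holds none. The windows are at chr9:31154739-31154988 on the plus strand for Gsta3, chr9:31216533-31216782 on the minus strand for Gsta1 and chr2:198260320-198260569 on the minus strand for Gstm7.
Gsta3: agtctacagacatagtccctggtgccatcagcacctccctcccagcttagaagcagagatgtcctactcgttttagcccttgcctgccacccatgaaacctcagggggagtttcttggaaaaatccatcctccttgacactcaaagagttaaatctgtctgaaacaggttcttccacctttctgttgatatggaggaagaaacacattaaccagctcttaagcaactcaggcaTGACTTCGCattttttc
Gsta1: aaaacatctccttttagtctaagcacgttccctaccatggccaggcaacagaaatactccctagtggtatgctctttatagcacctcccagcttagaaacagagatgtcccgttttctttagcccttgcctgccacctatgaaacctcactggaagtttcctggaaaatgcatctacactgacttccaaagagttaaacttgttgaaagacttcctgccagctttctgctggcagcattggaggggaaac
Gstm7: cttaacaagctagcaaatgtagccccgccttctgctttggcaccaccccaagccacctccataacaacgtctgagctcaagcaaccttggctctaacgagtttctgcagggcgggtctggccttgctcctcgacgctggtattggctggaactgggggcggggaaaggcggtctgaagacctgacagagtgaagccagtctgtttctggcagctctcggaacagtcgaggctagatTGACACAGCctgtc
RefSeq lists a second start for Gsta3, and the 250 bases before it held no such core. The Gsta3 and Gsta1 windows shared a stretch of 146 aligned bases, of which 121 (82.9%) were identical. Over the full promoters, which run to 50 bases past the start, the core was present in 5 of 40 member promoters (12.5%) and in 12.1% of all 33469 promoters. The 5 belong to Gsta1, Gsta3, Gstm5, Gstm7 and Gstp1; in Gsta1 the match begins 30 bases after the start. The xenobiotic response element core, GCGTG, was found in 10 of 40 member promoters (25%) against 29.7% of all. The hepatocyte nuclear factor 1 half-site, GTTAAT, was found in 6 of 40 (15%) against 7.45%. Those 6 include both Gsta3 promoters, beside Gsta1, Sult2a2, Sult2a6 and Ugt2b10. For the 5 genes with the antioxidant core, log2 differences between diets were 0.21 (Gsta1), 2.33 (Gsta3), 0.57 (Gstm5), -0.56 (Gstm7) and 0.02 (Gstp1). None passed the adjusted threshold. A match of letters is a description and not a bound site.

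Array intensities were taken to the log2 scale, and a difference is low protein minus control throughout. The median intensity of an array lay between 33.3 and 34.2. Correlations over all probe sets were 0.9916 to 0.994 between arrays of 1 diet and 0.9891 to 0.9918 between diets. Along the first principal component, with 36.9% of the variance, the third control array sat nearer to the low-protein arrays (-10.11) than the other control arrays did (-26.91 and -22.45), while low-protein arrays lay between 17.34 and 22.59. Across the array 41 probe sets passed an adjusted p of 0.05 (0.132% of those tested) and 26 of 14217 genes (0.183%).

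No transferase passed that threshold in limma, with p-values adjusted by the Benjamini-Hochberg method across the whole array, and none did when each gene was represented by 1 probe set. At an unadjusted p under 0.05, 11 of the 47 members differed (23.4%), against 15.4% of all probe sets. Of these 5 were higher after low protein and 6 lower, where the whole array had 7.83% higher and 7.58% lower. Arrays of the 2 diets did not overlap for 13 members (27.7%; 8 higher and 5 lower), against 21.6% of all probe sets. The members went both ways, 25 with a positive and 22 with a negative difference, and their median difference of 0.02 was close to that of all probe sets, 0.03. That split turned with the scaling of the arrays, from 21 positive and 26 negative after median centring to 32 and 15 after centring on the 75th percentile.

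Differences beyond 0.5 were found in 11 members. Of the 47, 36 (76.6%) differed by 0.5 or less on the log2 scale, against 96.5% of all probe sets. Bright probe sets differed more often in general. Among the brighter 50% of probe sets, cut on the mean of all 6 arrays, the shares were 72.2% of 36 members and 94.1% of all 15521. Gsta3 and one Ugt2b probe set had control means below that cut and entered through their low-protein arrays. The part of brightness in these shares was not tested. Those beyond 0.5 were Gsta3, Gstm4, Gstm5, Gstt3, Sult1c2, both Ugt2b probe sets and one of Sult2b1 on the higher side, and Gstm7, Gstk1 and Sult1c2a on the lower. Fewer cells of a type and less RNA per cell cannot be told apart in whole-liver RNA. No detection calls were used, so dim members cannot be told from background. 42 members had a mean above the 25th percentile of all probe sets and 36 above the median, and the 5 below the 25th percentile (Gsta3l1, Gstm6l, Sult1d1, Sult2a1 and Sult2a2) had log2 values of 2.53 to 3.72 on every array.

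**Figure D1:**
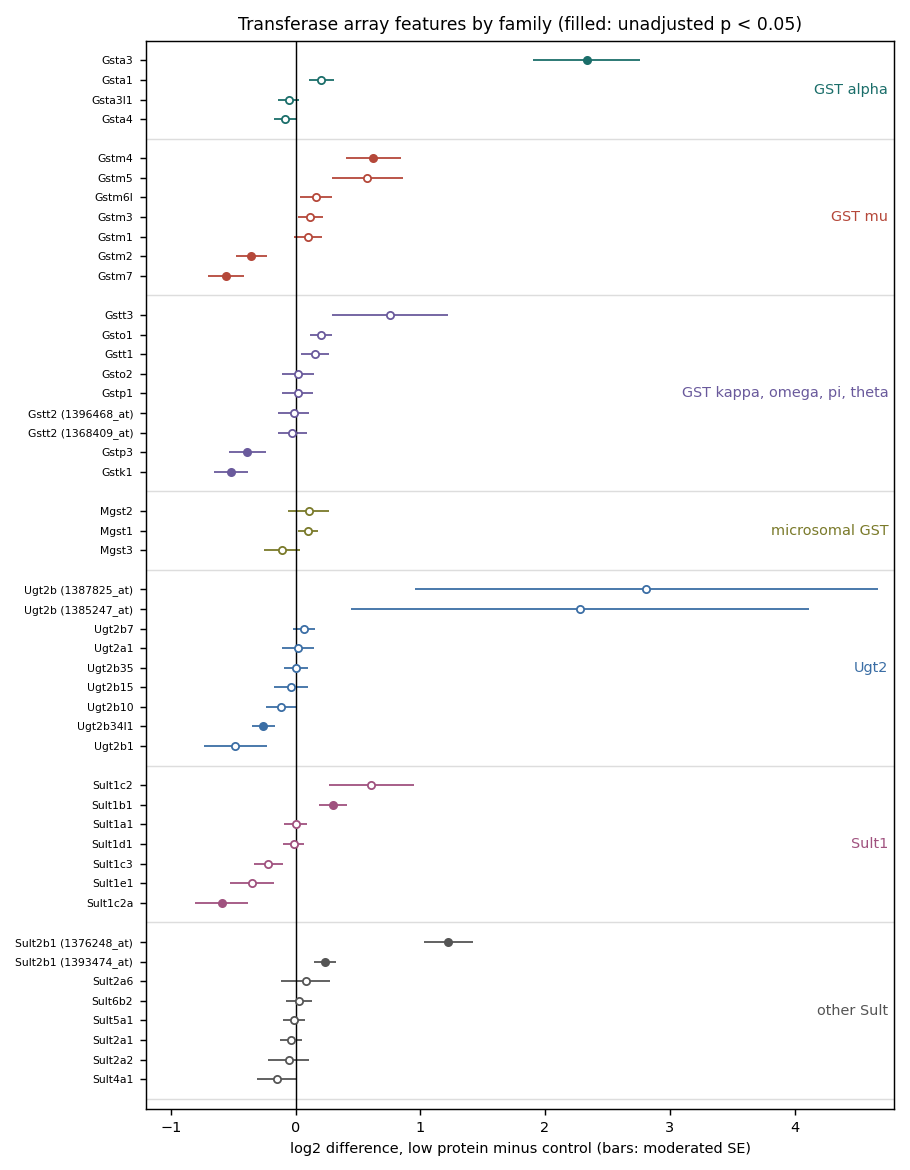
Difference between diets (low protein minus control, log2 of the intensity, horizontal axis) for each of the 47 transferase probe sets, grouped by family and sorted within it; bars are the moderated SE over 3 arrays per diet and filled points have an unadjusted p under 0.05. Gsta3 (SE 0.43) and one Sult2b1 probe set (SE 0.20) stand to the right of their families. The Ugt2b pair has the widest bars, and every family shown has members on both sides of 0.

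Alpha-class glutathione transferases, the classical abundant cytosolic enzymes of hepatocytes, were represented by 4 genes, 2 with a positive and 2 with a negative difference. Gsta3 had log2 intensities of 4.38, 4.94 and 5.54 under control feeding and 6.85, 8.30 and 6.71 under low protein. Every low-protein array was above every control array, and the second low-protein array stood highest. The difference was 2.33 (SE 0.43), a 5.04-fold ratio with a 95% interval of 1.36 to 3.31 on the log2 scale, and limma gave an adjusted p of 0.0772. With any 1 array left out the difference stayed between 1.83 and 2.63, and the adjusted p over all alternatives ran from 0.0601 to 0.202, so the threshold was not met under any of them.

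The other alpha genes differed far less. Gsta1 read 12.35, 12.44 and 12.30 on control and 12.51, 12.74 and 12.46 on low-protein arrays. Its groups did not overlap, but the difference was 0.21 (SE 0.10, adjusted p = 0.377). Gsta4, the enzyme best known for conjugating the lipid peroxidation product 4-hydroxynonenal, differed by -0.08 (SE 0.09) and the dim Gsta3l1 by -0.06. A further probe set carries the symbols Gsta5 and Gsta2 together and was no member. It read 11.40, 11.56 and 11.82 on control and 11.91, 12.08 and 11.85 on low-protein arrays, a difference of 0.35 (SE 0.13, adjusted p = 0.246 in limma). In the RefSeq order of genes Gsta3l1, Gsta3 and Gsta1 fall within a run of 4 protein-coding genes, so the 2.33 of Gsta3 stood close to genes at -0.06 and 0.21.

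Mu-class genes differed in both directions although they sit side by side. All 7 lie on 1 chromosome within a run of 9 protein-coding genes, every one of which has a transferase symbol. Such close copies can share probes, and the tables used here do not give the probe sequences. Gstm7 read 8.04, 7.52 and 7.95 on control and 7.16, 7.30 and 7.38 on low-protein arrays. The groups did not overlap, and the difference was -0.56 (SE 0.14, adjusted p = 0.147 in limma). Gstm2 was likewise lower on every low-protein array, with 10.37, 10.43 and 10.78 against 10.09, 10.18 and 10.24. Its difference was -0.35 (SE 0.12, adjusted p = 0.229), or -0.23 without the third control array.

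Gstm4 went the other way. It read 8.31, 9.13 and 9.15 on control and 9.31, 9.44 and 9.72 on low-protein arrays. The difference of 0.62 (SE 0.22, adjusted p = 0.241) came with groups that did not overlap, the first control array being the lowest by a wide margin; without it the difference was 0.35. Gstm5 had a difference of almost the same size, 0.57, but a larger error (SE 0.29, adjusted p = 0.381), with 3.82, 4.66 and 4.97 on control and 4.65, 5.26 and 5.26 on low-protein arrays. Without the first control array Gstm5 differed by 0.24. Gstm6l (0.16), Gstm3 (0.12) and Gstm1 (0.10), the last a bright probe set at 12.13 to 12.51, differed by little more than their SE of 0.13, 0.10 and 0.11 or by less. In order along the chromosome, the differences were 0.57 (Gstm5), 0.16 (Gstm6l), -0.56 (Gstm7), 0.12 (Gstm3), -0.35 (Gstm2), 0.10 (Gstm1) and 0.62 (Gstm4), so that members next to each other in this order often differed in sign.

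**Figure D2:**
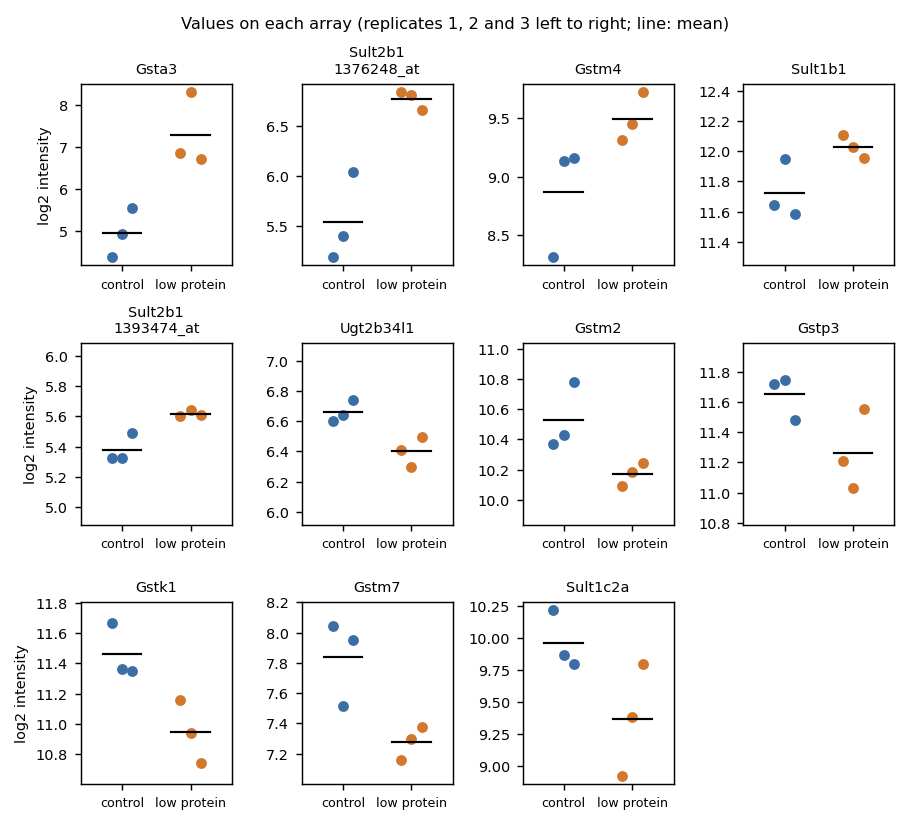
Log2 intensity (vertical axis, scaled separately in each panel) on each of the 6 arrays for the 11 members with an unadjusted p under 0.05; blue points are control, orange points low protein, in order of replicate number, and the line is the mean. The 5 panels with higher low-protein values come first (Gsta3, Gstm4, Sult1b1 and both Sult2b1 probe sets), and the 2 diets overlap only for Gstp3 and Sult1c2a.

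The kappa, pi, omega and theta classes held 9 probe sets of 8 genes. Gstk1, a transferase of mitochondria and peroxisomes, read 11.67, 11.37 and 11.35 on control and 11.16, 10.94 and 10.74 on low-protein arrays. It was lower on every low-protein array, 1.43-fold in the mean (difference -0.52, SE 0.14, adjusted p = 0.15 in limma). Gstp3, a pi-class gene, had 11.72, 11.75 and 11.48 against 11.21, 11.03 and 11.55, so the third low-protein array lay among the control arrays. Its difference was -0.39 (SE 0.14, adjusted p = 0.258), while Gstp1, the other pi-class gene, differed by 0.02 (SE 0.12). Pi-class transferase is also known from bile duct epithelium. Of 4 cholangiocyte markers measured, 2 had unadjusted p-values under 0.05 on the lower side, against 7.58% of all probe sets. These were Krt19 (-0.39, adjusted p = 0.227 in limma) and Epcam (-0.55, adjusted p = 0.315), and the diets overlapped for both. The summed intensity of that list was 252 to 411 on control and 199.7 to 279 on low-protein arrays. Epcam, at 6.98 to 8.30, made up most of that sum. Krt7 (0.13) and Spp1 (-0.01) lay near 0, and the part of these markers in the Gstp3 result was not tested.

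Gsto1, an omega-class enzyme that reduces dehydroascorbate, read 10.93, 10.91 and 11.07 on control and 11.10, 11.25 and 11.18 on low-protein arrays. The groups did not overlap, at a difference of 0.20 (SE 0.09, adjusted p = 0.333). Gsto2 differed by 0.02. Theta-class enzymes act on small halogenated compounds, and Gstt3 was the most uneven of them, with 8.90, 9.96 and 10.98 on control and 10.92, 11.04 and 10.14 on low-protein arrays. Control arrays alone spanned 2.07 log2 units, the widest span of any member after Ugt2b, and the difference of 0.76 (SE 0.46) had adjusted p = 0.472. Without the third control array it was 1.27, with an adjusted p of 0.164 in limma, and without the first it was 0.24. Gstt1 differed by 0.16 (SE 0.11) and both probe sets of Gstt2 by -0.03 and -0.02 (SE 0.12 and 0.13).

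The 3 microsomal transferases, membrane proteins unrelated in sequence to the cytosolic enzymes, differed little. Mgst1, the abundant one of liver, read 13.57, 13.62 and 13.64 on control and 13.71, 13.72 and 13.71 on low-protein arrays. These groups did not overlap, but the difference was 0.10 (SE 0.08, adjusted p = 0.587). Mgst2 had a difference of 0.10 (SE 0.17), and Mgst3 one of -0.11 (SE 0.14).

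For glucuronidation the clearest difference was in features shared by the whole Ugt1 locus, whose genes are known to splice alternative first exons to common later exons. A pair of probe sets carries the same 8 symbols, from Ugt1a1 to Ugt1a9, and so cannot be given to 1 gene and is outside the members. The first read 11.78, 12.19 and 12.21 on control and 12.56, 12.78 and 12.53 on low-protein arrays. It was higher on every low-protein array, by 0.57 (SE 0.13, adjusted p = 0.125 in limma). The second read 10.50, 10.79 and 10.89 against 11.18, 11.55 and 10.97, again without overlap, by 0.50 (SE 0.16, adjusted p = 0.204). Both are estimates of transcripts from 1 locus and are not independent.

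Ugt2 genes were largely level between the diets. All 8 lie on 1 chromosome within a run of 14 protein-coding genes, 11 of them with transferase symbols. Ugt2b34l1 read 6.60, 6.64 and 6.74 on control and 6.41, 6.30 and 6.50 on low-protein arrays. It was the single Ugt2 probe set whose groups did not overlap, with a difference of -0.26 (SE 0.09, adjusted p = 0.244 in limma). Ugt2b1 had 10.28, 10.87 and 10.41 against 10.42, 10.24 and 9.45, a difference of -0.48 (SE 0.25, adjusted p = 0.4) or -0.19 without the third low-protein array. The remaining genes differed by -0.11 (Ugt2b10), -0.04 (Ugt2b15), 0.00 (Ugt2b35), 0.02 (Ugt2a1, the form known from olfactory epithelium) and 0.07 (Ugt2b7). For the bright Ugt2b35, at 12.46 to 12.69 on all arrays, the 95% interval of the difference was -0.22 to 0.23.

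Ugt2b varied between arrays of 1 diet far more than between diets. RefSeq gives Ugt2b2 as a synonym of this gene, the androsterone glucuronosyltransferase, and an inherited lack of androsterone glucuronidation has long been known in part of Wistar stock. Its first probe set read 12.61, 8.65 and 4.60 on control and 12.73, 8.71 and 12.85 on low-protein arrays. The second read 8.76, 3.31 and 3.12 on control and 8.83, 3.57 and 9.64 on low-protein arrays. On both probe sets the first control array and the first and the third low-protein arrays were high, and the other 3 arrays were low, whichever diet they came from. On the first probe set the second array of each diet sat at an intermediate level and the third control array was lower again. The labels give no genotype of single animals, and the part of that inherited lack in these values was not tested. The diet differences of 2.81 (SE 1.86) and 2.28 (SE 1.83) had adjusted p-values of 0.507 and 0.595 in limma, and with any 1 array left out the former ran from 0.80 to 4.81. The widest span within a diet, 8.02 for the first probe set, ranked 1 of all 31042 probe sets, and 6.07 for the second ranked 3, where the median over all probe sets was 0.31.

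**Figure D3:**
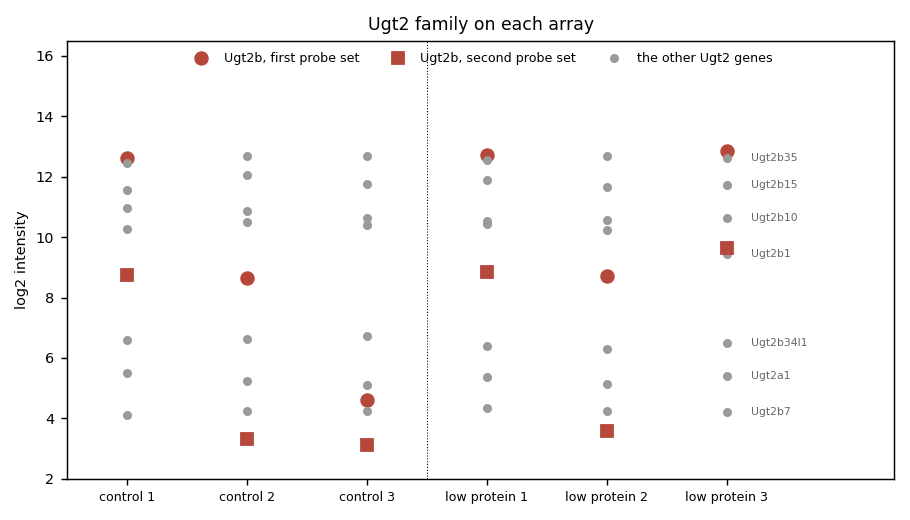
Log2 intensity (vertical axis) of the 9 Ugt2 probe sets on the 6 arrays, with control arrays left and low-protein arrays right of the dotted line; red circles and squares are the 2 Ugt2b probe sets and grey points the other genes. Among the grey points Ugt2b1 varies most, from 10.87 on control 2 to 9.45 on low protein 3, while Ugt2b is far lower on control 2, control 3 and low protein 2 than on the other arrays.

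Sulfotransferases of the Sult1 family act mainly on phenols, and 2 of 7 probe sets had a positive and 5 a negative difference. Sult1b1, known for sulfating thyroid hormones, read 11.65, 11.95 and 11.58 on control and 12.10, 12.02 and 11.95 on low-protein arrays. The groups just failed to overlap, and the difference was 0.30 (SE 0.11, adjusted p = 0.263 in limma). Sult1c2a read 10.22, 9.87 and 9.80 against 8.92, 9.38 and 9.80. On the third low-protein array it lay among the control arrays, and the difference was -0.59 (SE 0.21, adjusted p = 0.244).

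Sult1c2, which lies near Sult1c2a and Sult1c3 on the same chromosome, had 8.26, 7.44 and 6.63 on control and 7.87, 8.09 and 8.19 on low-protein arrays. Control arrays spanned 1.64 log2 units and low-protein arrays 0.32, and the difference of 0.61 (SE 0.34) had adjusted p = 0.433 in limma. Without the third control array it was 0.20, and without the first it was 1.02. A probe set shared by Sult1c2 and RGD1562392 gave the same order of arrays within control, 6.69, 6.39 and 5.84, with 6.60, 6.64 and 6.73 on low protein and a difference of 0.35 (SE 0.19), or 0.12 without the third control array. Sult1c3 was lower on every low-protein array, at 12.67, 12.62 and 12.71 against 12.20, 12.55 and 12.59, by a mean difference of -0.22 (SE 0.12, adjusted p = 0.414). Sult1e1, the estrogen sulfotransferase, had 12.06, 12.51 and 12.28 against 12.10, 12.15 and 11.56 (difference -0.35, SE 0.18, adjusted p = 0.389). Sult1a1, the major phenol sulfotransferase, was level, with a 95% interval of -0.22 to 0.22, and the dim Sult1d1 differed by -0.02.

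Of the other sulfotransferases Sult2b1 stood apart. This enzyme is known for sulfating cholesterol and pregnenolone. The probe set with the larger difference read 5.19, 5.39 and 6.04 on control and 6.83, 6.80 and 6.66 on low-protein arrays. The low-protein arrays lay within 0.18 of each other and all above the control arrays, of which the third was the highest. The difference was 1.22 (SE 0.20), or 2.33-fold, with a 95% interval of 0.77 to 1.68 and an adjusted p of 0.0603 in limma. Without the third control array the difference was 1.47 with an adjusted p of 0.0125, and with arrays weighted by their quality it was 1.31 with 0.0416. Over all alternatives the adjusted p of Sult2b1 ran up to 0.163. Its other probe set went the same way at a much smaller size, with 5.33, 5.33 and 5.49 on control, 5.60, 5.64 and 5.61 on low protein, no overlap, and a difference of 0.24 (SE 0.09, adjusted p = 0.253).

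The Sult2a genes did not share that difference at a detectable size. Sult2a6 differed by 0.08 (SE 0.20), and the dim Sult2a1 and Sult2a2 by -0.04 and -0.06. Sult5a1 (-0.01), Sult6b2 (0.03) and Sult4a1 (-0.15, SE 0.16), the last a form known from brain, also lay within their error.

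None of the 15 probe sets of 12 genes that supply and handle glutathione passed the threshold. Of the 15, 10 had a positive difference, a share near the 58.1% of all probe sets, and their median was 0.12 against 0.03; 5 were higher and 1 lower at an unadjusted p under 0.05, against 7.83% and 7.58% of all probe sets. Gclc, the catalytic subunit of the enzyme that joins glutamate to cysteine, read 7.34, 7.57 and 7.82 on control and 8.21, 8.53 and 8.00 on low-protein arrays on one probe set. Its difference was 0.67 (SE 0.16, adjusted p = 0.132 in limma), and the other Gclc probe set gave 0.60. Gss, which adds glycine to complete glutathione, read 7.82, 8.30 and 8.55 against 9.05, 9.73 and 8.79, with a difference of 0.97 (SE 0.26, adjusted p = 0.152). Neither gene had overlapping groups. Glrx, a glutaredoxin, differed by 0.52 and 0.30 on its 2 probe sets, and Gsr, which regenerates reduced glutathione, by 0.38. Gclm, the modifier subunit partnered with Gclc, differed by -0.08 (SE 0.29). Gstz1, a zeta-class member that serves tyrosine breakdown, was lower on every low-protein array (-0.23, adjusted p = 0.249).

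The lists for the other 2 co-substrates showed less. Of 4 probe sets listed for UDP-glucuronate supply and turnover none had an unadjusted p under 0.05, and the median was 0.07. Ugdh, which oxidises UDP-glucose to UDP-glucuronate, had the smallest p, with 10.95, 11.11 and 11.28 on control, 11.23, 11.51 and 11.27 on low protein, and a difference of 0.22 (SE 0.12). Ugp2 differed by 0.17. Uxs1 (-0.06) and Gusb (-0.03) are on that list but do not make UDP-glucuronate. For PAPS supply and turnover 7 probe sets had a median of -0.03 and again none with an unadjusted p under 0.05. Sts (-0.03) and Bpnt1 (-0.09) are among them but do not make PAPS. Papss1, which makes PAPS, differed by 0.31 (SE 0.15), the sulfate carrier Slc26a1 by 0.32 (SE 0.16) and the Golgi PAPS carrier Slc35b2 by -0.19 (SE 0.09).

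Transcripts of the known regulators gave no call. Among 19 probe sets of 13 genes the median was -0.01, and none passed. At an unadjusted p under 0.05, 1 was higher and 2 were lower, a share near the 15.4% of all probe sets. Keap1, the protein that holds NRF2 in the cytoplasm, differed by -0.26 on one probe set (adjusted p = 0.255) and by -0.13 on its other probe set. Nfe2l2 itself read 9.50, 9.03 and 9.55 against 8.94, 9.27 and 8.80, a difference of -0.36 (SE 0.17, adjusted p = 0.359). Ahr differed by 0.33 (adjusted p = 0.255) on one dim probe set and -0.08 on the other, and Hnf4a by -0.26, 0.17 and -0.01 on its 3. Ppara had the largest difference of the list, -0.42, but a wide error (SE 0.40), with control arrays spanning 1.82 log2 units. Nr1i3, the gene of CAR, differed by 0.18 (SE 0.20) and Nr1i2, the gene of PXR, by -0.05 (SE 0.14). Transcript levels do not measure the activity of these proteins.

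Other enzymes under the same regulators gave a median of 0.13 over 13 probe sets, with 4 higher and 2 lower at an unadjusted p under 0.05 (15.4% of all probe sets, either way) and none past the threshold. Akr7a3, an aldehyde reductase of aflatoxin metabolism, read 9.07, 9.55 and 9.78 on control and 10.99, 11.77 and 10.16 on low-protein arrays (difference 1.51, SE 0.36). Its second low-protein array was the highest, as for Gsta3, Gss and that probe set of Gclc. Aldh1a1, a retinal dehydrogenase, differed by 1.18 (adjusted p = 0.0839 in limma, and 0.00886 without the third control array). Ces2c, a carboxylesterase, was lower on every low-protein array (difference -0.42, SE 0.11, adjusted p = 0.142). Nqo1, a known NRF2 target, was uneven, with 7.22, 6.62 and 7.71 on control and 7.19, 10.28 and 9.22 on low-protein arrays (difference 1.71, SE 0.67, adjusted p = 0.276). Of further genes of this kind, Ephx1 differed by 0.50 (SE 0.24), Txnrd1 by 0.26 and 0.11 (SE 0.12 and 0.15), Hmox1 by -0.07 (SE 0.12) and Akr1b8 by -0.06 (SE 0.21). The rest of the list went both ways. Cyp4a1 differed by 0.61 (SE 0.21, adjusted p = 0.227) and Cyp3a18 by 0.13 (SE 0.15). Cyp1a1 differed by -0.48 (SE 0.17, adjusted p = 0.245) and Cyp1a2 by -0.44 (SE 0.22).

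Export of conjugates gave the one call among these lists. Abcc2, the canalicular pump that carries glutathione and glucuronide conjugates into bile, read 10.84, 11.36 and 11.19 on control and 9.87, 9.42 and 9.88 on low-protein arrays. It fell by 1.41 on the log2 scale (SE 0.17, adjusted p = 0.0375 in limma), with low-protein arrays all below the control arrays. The call was lost without the second control array (adjusted p = 0.112) and without the first, the second or the third low-protein array (0.0914, 0.0648 and 0.0718), at differences of -1.48 to -1.25. With the replicate number as a block the call was also lost (adjusted p = 0.103 in limma). The other 5 probe sets of the list did not pass. Abcc3, a basolateral pump of the same family, differed by 0.24 (SE 0.13), Abcc4 by 0.17 and Abcg2 by -0.35 (SE 0.27). Abcb1a differed by 0.23 (SE 0.13) on one probe set and by 0.06 (SE 0.19) on the other.

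**Figure D4:**
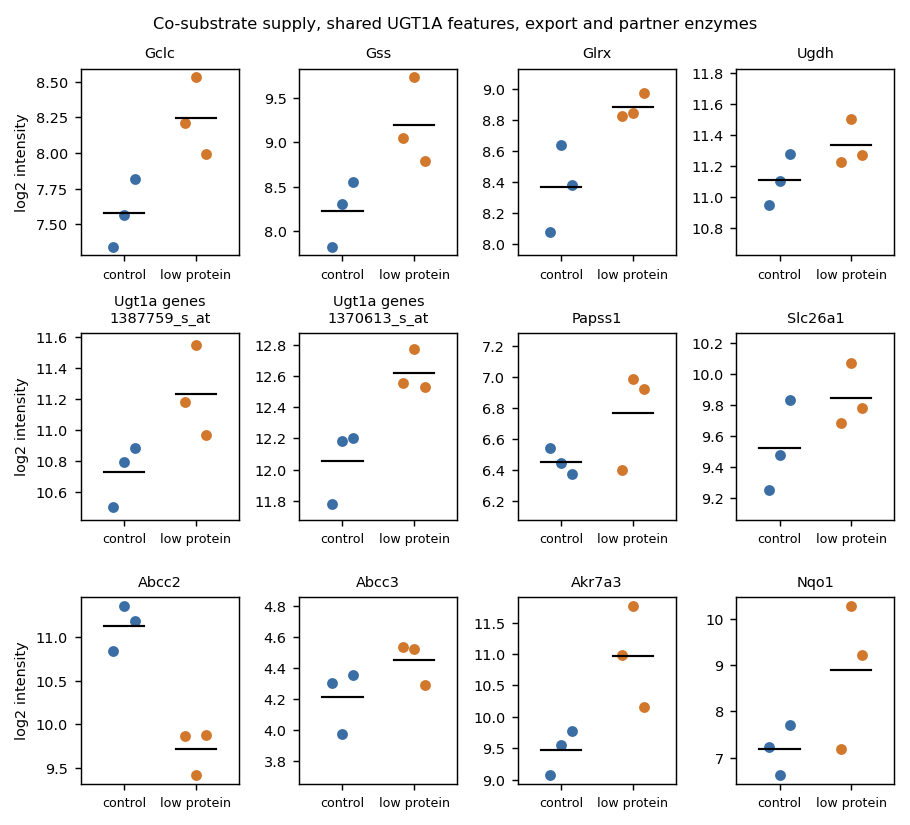
Log2 intensity (vertical axis, scaled separately in each panel) on each array for 12 features around conjugation: glutathione synthesis and handling (Gclc, Gss, Glrx), UDP-glucuronate supply (Ugdh), the 2 shared Ugt1a features, PAPS supply (Papss1, Slc26a1), export pumps (Abcc2, Abcc3) and partner enzymes (Akr7a3, Nqo1); blue is control, orange low protein, and the line is the mean. Abcc2 is the one panel whose feature passed the adjusted threshold, with low-protein arrays at 9.42 to 9.88 and control arrays at 10.84 to 11.36.

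The samples read as liver, with albumin (Alb) at 14.29 to 14.40 on its 2 probe sets. Summed intensity over the 9 hepatocyte marker probe sets was 105451 to 106121 on control and 101566 to 102035 on low-protein arrays. Of the 9, 3 had a positive difference, and 2 were lower at an unadjusted p under 0.05. Both of these were of Cps1 (-0.70 and -0.23), which is also on the periportal list. Red blood cell markers were higher after low protein for 4 of 5 probe sets, with Hbb at 0.48 (adjusted p = 0.0739) and Alas2 at 0.43 (adjusted p = 0.112), both in limma, Slc4a1 at 0.14 and 0.12 and Epb42 at -0.06. Their summed intensity was 2865 to 3118 on control and 4049 to 4314 on low-protein arrays. Hbb, at 11.43 to 12.03, made up most of that sum, with the other probe sets between 3.98 and 6.01. The part of these markers in the transferase differences was not tested. Periportal hepatocyte markers had a positive difference in 1 of 9 probe sets (median -0.28), and 5 were lower at an unadjusted p under 0.05. Pericentral markers were positive in 6 of 11 (median 0.05), with 2 higher and 2 lower at that p. Over all probe sets 58.1% had a positive difference, and 7.83% were higher and 7.58% lower at that p. Of the pericentral markers Oat passed and fell by 2.48 on the log2 scale (adjusted p = 0.00833 in limma). With the replicate number as a block the adjusted p of Oat was 0.0531. Aldh1a1, on the same list, went the other way (1.18, adjusted p = 0.0839). Glutathione transferases are known to be denser around the central vein, and the part of zone markers in these results was not tested. Macrophage (3 of 4 positive, median 0.20), endothelial (1 of 4, -0.07), stellate (3 of 6, 0.05) and lymphocyte markers (5 of 5, 0.10) had no probe set with an unadjusted p under 0.05.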

How the data were processed

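Liver RNA was labelled with a 3' IVT kit and read on Affymetrix rat arrays (labels' protocols). The deposited table holds 1 intensity for each probe set on each array, which the authors made with RMA per the submitters' processing notes (its version is not given in the sources used here). This method equalises arrays, so a shift shared by most genes would not be seen. Values ran from 3.61 to 21668, were read as linear and taken to log2.

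Of 31099 probe sets, 57 controls were left out and 31042 tested without a filter. Symbols are the platform annotation's, which can be old; 20826 probe sets had 1, 436 several and 9780 none. Gene IDs of 43 of the 44 member genes were in the RefSeq table of GRCr8 (not Sult1e1), used for names, gene order and promoters. Another 4 matching probe sets carry several symbols and were no members.

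Diets were compared with limma 3.58.1 in R 4.3.3 (lmFit, eBayes, two-sided) over all probe sets, or over genes by the brightest probe set, with Benjamini-Hochberg adjustment and a call at 0.05; residual degrees of freedom were 4, and 8.38 with the prior. An exact permutation test of 3 against 3 arrays cannot go below 0.1. The procedure was tested on simulated data. Named were, in each family, the 5 genes of smallest p and both extremes. In each list other than the cell type markers the 3 of smallest p were named. All others, marker genes among them, were named after their values were seen. Members and lists were chosen with earlier results of these data known. Alternatives were the prior variance (intensity-dependent or robust), scaling, removal of probe sets below the 25th or the 50th percentile, array weights, a gene as the mean of its probe sets, the replicate number as a block, and each array left out. Same-numbered arrays did not deviate together (r = -0.0873, -0.0272 and -0.102). This cannot exclude a pairing, but the labels do not state that the numbers pair samples, so the block stayed an alternative. Python 3.11.15 and matplotlib 3.10.9 drew the figures.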

Additional observations from a re-analysis of the deposited data

How the results depend on the processing

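Of the 47 transferase probe sets 28 kept their direction under every alternative run and 19 changed it in at least 1, all with main differences of 0.15 or less in size. The number past the adjusted threshold, over members, over named members and over genes, was 0 in every setting but with array weights and without the third control array, where Sult2b1 made it 1 (0 to 1 with 1 array left out). Over all probe sets the count of 41 became 103 with a robust prior variance, 78 after median centring, 102 with array weights, 6 with the replicate block and 16 to 109 with 1 array left out; the high end came without the third control array. The list and marker probe sets past the threshold, 2, became 0 with the replicate block (adjusted p of 0.103 for Abcc2 and 0.0531 for Oat) and 1 to 4 with 1 array left out. The median difference of the members, 0.016, became -0.011 after median centring and 0.065 after 75th-percentile centring, and the median over all probe sets moved between 0.0052 and 0.081 with the scaling. The replicate block changed no transferase call. The cause of these shifts was not tested.

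Signs turned as follows. After median centring Gsto2 was at -0.0077, Gstp1 at -0.011, Ugt2a1 at -0.0095 and Ugt2b35 at -0.025. After quantile normalization Gsto2 was at -0.025, Sult6b2 at -0.020, Ugt2a1 at -0.00021, Ugt2b35 at -0.011 and Sult5a1 at 0.013. After 75th-percentile centring Gstt2 was at 0.023 and 0.033, Sult1a1 at 0.049, Sult1d1 at 0.033, Sult2a1 at 0.013, Sult5a1 at 0.035 and Ugt2b15 at 0.013. With array weights Gstp1 was at -0.0085, Sult1a1 at 0.0050 and Ugt2a1 at -0.0047. With 1 array left out, the ranges that crossed 0 were -0.018 to 0.17 for Gstm1, -0.085 to 0.11 for Gsto2, -0.071 to 0.12 for Gstp1, -0.11 to 0.077 and -0.16 to 0.057 for Gstt2, -0.070 to 0.27 for Mgst2, -0.27 to 0.00011 for Mgst3, -0.046 to 0.048 for Sult1a1, -0.052 to 0.035 for Sult1d1, -0.073 to 0.018 for Sult2a1, -0.25 to 0.071 for Sult2a2, -0.15 to 0.25 for Sult2a6, -0.26 to 0.038 for Sult4a1, -0.048 to 0.031 for Sult5a1, -0.036 to 0.11 for Sult6b2, -0.069 to 0.13 for Ugt2a1, -0.21 to 0.020 for Ugt2b10, -0.15 to 0.093 for Ugt2b15 and -0.071 to 0.043 for Ugt2b35. Background correction could not be varied on RMA values, and slide or scan date is not given in the sources used here. The 3 arrays per diet limit the precision.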

Other observations

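The 10 probe sets with the widest span of log2 intensity within a diet held both Ugt2b probe sets and 3 with RT1 symbols, genes of the rat major histocompatibility complex. The probe set shared by RT1-A3 and RT1-A2 read 11.35, 11.18 and 6.05 on control and 11.17, 4.79 and 10.47 on low-protein arrays, a span of 6.38. It was low on the third control and second low-protein arrays, which are 2 of the 3 arrays with low Ugt2b, and high on the second control array, where Ugt2b was low. RT1-Bb read 6.76, 8.30 and 3.30 against 3.65, 3.51 and 6.87, and RT1-CE10 read 10.18, 8.02 and 7.17 against 10.98, 6.96 and 7.70. RT1-CE10 was highest on the first control and first low-protein arrays, both high in Ugt2b, while its value on the third low-protein array lay below the second control array. These genes were chosen after their values were seen.

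The second low-protein array held the highest value for 12 of the 47 transferase probe sets, more than any other array, where it held the highest value for 16.6% of all probe sets. The first control array held the lowest value for 14 of the 47, against 19.2% of all. These shares were not tested.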
